A study of Mus musculus with 13 samples.

Results

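The genes described here are 10 mouse receptors, and proteins close to them, that bind debris, modified lipids or dying cells: Marco, Msr1, Cd163, Stab1, Axl, Mertk, Timd4, Trem2, Gpnmb and Cd5l. They were listed by their symbols, with earlier results of these data known, and all 10 were found once each among the 31053 genes of the matrix. RNA was measured in single cells of whole mouse lung, and by their disease state labels 4 samples, 1 in each group, were Asthma, Control, PPE-emphysema and PPE-recovery. PPE is porcine pancreatic elastase, a protease that destroys elastic fibres when it is put into the airways. By the study's methods, the PPE-emphysema and control mice had repeated weekly instillations through the trachea, the PPE-recovery mouse had a single instillation followed by a rest, and the asthma mouse was sensitised to and challenged with ovalbumin. The mice were wild type, of the C57BL/6 strain as far as the methods say, with no age given in the labels, and the cells came from 1 mouse per group. Another 9 samples, 3 each of Acute injury, Con and emphysema, are not analysed here.

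The matrix marks its cells by a library number from 1 to 7 and by no group, so no library could be tied to a mouse model. By the rule for these genes, libraries 1, 2, 3 and 7 were used, with cells whose mitochondrial genes held at most 10% of the molecules. Each library is given by its number as a single unassigned sample. There are therefore no replicates and no p-values, a value of 1 library carries an exact 95% interval that covers counting error only, and a difference between libraries cannot be told apart from a difference between mice, models or preparations.

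Scavenger receptors such as Marco and Msr1 are surface proteins of macrophages that take up bacteria, particles and oxidised lipoproteins, and Cd163 takes up complexes of haptoglobin and haemoglobin. Efferocytosis, the clearance of dying cells, starts when a phagocyte recognises phosphatidylserine on the dying cell, either directly, as Timd4 and Stab1 do, or through bridging proteins such as Gas6 and Pros1 that are bound by the receptor tyrosine kinases Axl and Mertk. In the lung, resident alveolar macrophages clear surfactant and dead cells from the airspace, while interstitial and recruited macrophages do so within the tissue.

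The loci are given in the GRCm38 build with GENCODE M21 annotation, and all 10 are protein-coding. The scavenger receptors lie at chr1:120474538-120505024 on the minus strand (Marco), chr8:39581685-39642673 on the minus strand (Msr1), chr6:124304656-124330527 on the plus strand (Cd163) and chr14:31139013-31168641 on the minus strand (Stab1). Axl lies at chr7:25757273-25788705 on the minus strand and Mertk at chr2:128698956-128802894 on the plus strand. Timd4 lies at chr11:46810800-46844332, Trem2 at chr17:48346401-48354147, Gpnmb at chr6:49036546-49070929 and Cd5l at chr3:87357881-87371073, all on the plus strand. Mertk overlaps Gm23172 on its own strand and Gm14011 on the other, and Stab1 overlaps Nt5dc2 on the other strand.

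Promoters from 250 bases before to 50 bases after the transcription start were taken from RefSeq (GRCm38.p6), which matched 9 of the 10 genes by symbol. Shown here, 5′ to 3′ on the gene's strand, are 2 pairs of genes that shared a macrophage class: Cd5l and Timd4, both found in cells of the C1q macrophages, and Trem2 and Gpnmb, whose levels were high in the Arg1/Mmp12 macrophages. They are not the pairs of the set whose levels were most alike over all classes. Capitals mark matches, on either strand, to the core motif of PU.1 (GAGGAA), the E-box CACGTG, the AP-1 motif TGANTCA and the core TGCTGA of the MAF recognition element. The windows are chr3:87357631-87357930, chr11:46810549-46810848, chr17:48346151-48346450 and chr6:49036268-49036567, all on the plus strand.
Cd5l: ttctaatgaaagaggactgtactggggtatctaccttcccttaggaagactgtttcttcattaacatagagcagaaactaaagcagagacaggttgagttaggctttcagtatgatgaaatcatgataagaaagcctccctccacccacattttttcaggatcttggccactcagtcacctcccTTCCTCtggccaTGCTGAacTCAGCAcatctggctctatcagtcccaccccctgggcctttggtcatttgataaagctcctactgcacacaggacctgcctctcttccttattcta
Timd4: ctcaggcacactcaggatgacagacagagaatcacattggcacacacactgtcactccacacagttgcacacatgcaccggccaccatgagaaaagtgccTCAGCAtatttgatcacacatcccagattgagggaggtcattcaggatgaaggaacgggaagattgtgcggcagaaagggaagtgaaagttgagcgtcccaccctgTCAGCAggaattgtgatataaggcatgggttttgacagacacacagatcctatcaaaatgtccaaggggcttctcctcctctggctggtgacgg
Trem2: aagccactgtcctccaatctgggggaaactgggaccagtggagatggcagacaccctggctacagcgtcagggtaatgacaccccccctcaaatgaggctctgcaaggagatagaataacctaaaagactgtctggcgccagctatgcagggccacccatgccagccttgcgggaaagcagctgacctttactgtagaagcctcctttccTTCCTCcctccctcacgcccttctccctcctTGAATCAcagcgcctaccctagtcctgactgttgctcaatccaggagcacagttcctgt
Gpnmb: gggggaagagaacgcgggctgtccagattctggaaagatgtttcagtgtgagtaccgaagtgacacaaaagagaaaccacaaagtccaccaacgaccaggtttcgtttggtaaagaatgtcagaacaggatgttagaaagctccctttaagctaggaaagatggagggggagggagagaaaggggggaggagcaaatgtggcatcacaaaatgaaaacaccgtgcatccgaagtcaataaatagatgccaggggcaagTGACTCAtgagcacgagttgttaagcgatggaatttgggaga

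Cd5l and Timd4 each held 2 MAF sites, which 19.5% of the 32851 promoters of the same length held at least once, and Stab1 held 1. Cd163, also a gene of the C1q macrophages, held 0. Trem2 and Gpnmb each held 1 AP-1 motif, against 7.81% of all promoters, and the other 7 genes with a promoter held none. The PU.1 core was in 5 of the 9 (Marco, Trem2, Axl, Stab1 and Cd5l) against 28.3% of all. The E-box was in 0 of the 9 windows and in 7.15% of all. No match overlapped another in the windows shown. A match describes the letters of the window and is not a measured binding site.

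After the mitochondrial limit 4800, 7626, 5129 and 3301 cells remained in libraries 1, 2, 3 and 7, with medians of 7234, 8364, 6800 and 6889 unique molecular identifiers (UMIs, each marking 1 captured RNA molecule) per cell. Pairs of libraries shared 3 to 15 barcodes. Cells were clustered without the 10 genes and named from marker lists that hold none of them, and a class is written with "-like" because the name rests on those markers alone. The 9 classes described are alveolar macrophage-like (3205 cells), Arg1/Mmp12 macrophage-like (1371), C1q macrophage-like (817), classical and nonclassical monocyte-like (1265 and 1173), and general capillary, aerocyte capillary, large-vessel and lymphatic endothelial-like cells (2189, 404, 362 and 141). A level is the share of a class's summed UMIs in a library, in CPM (UMI counts scaled to a common total), which 3' counting does not tie to transcript length, and 50 cells were asked of a class in a library before it entered a comparison.

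The names rest on the marker lists, so the presence of those markers is no separate check of them. Markers of the Arg1/Mmp12 macrophage-like cells summed to 952 CPM in library 3, with 4 of 5 above 0, against 7461 to 12946 CPM in the other libraries. Those of library 3 were 58 cells with a median of 615 UMIs, against 4168 to 8946 in the other libraries, and their values are given as read from few molecules. The study counts clusters with C1qa or Rnase2a among its eosinophils. It also drew on in situ hybridisation of these genes with immunostaining for ECP, and on a relationship to RNA of sorted eosinophils. The names here rest on the marker lists, which hold both genes, and the difference from the study was not tested. The 5 eosinophil markers summed to 0 to 2.73 CPM in the Arg1/Mmp12 class and 24.7 to 148 CPM in the C1q class, led there by Alox15, against 2799 CPM in the eosinophil-like cells of library 7. In 2 clusters of the classes described another list scored higher than the one that gave the name: nonclassical for classical monocytes in cluster 13, and NK cell for general capillary endothelium in cluster 12. Outside these classes, the mesothelial list scored higher in cluster 21, which was named fibroblast. The alveolar class joined 3 clusters, of which cluster 10 held most of its cells in library 1 and cluster 0 most in the others.

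The 10 genes divided the macrophages among them. Among the 9 classes described, Marco, Axl and Mertk were highest in alveolar macrophage-like cells. Trem2 and, in all libraries but 3, Gpnmb were highest in Arg1/Mmp12 macrophage-like cells, and Cd163, Timd4 and Cd5l in C1q macrophage-like cells. In library 1 the Timd4 level of the C1q class was 1.14 CPM, inside the 0 to 4.35 CPM of Timd4 in B cell-like cells. Dendritic cell-like classes are not among the 9, and in each library at least 1 of them held more Timd4 than the C1q class. For 8 of the 10, the highest class ranked was a macrophage class in every library, against 15.3% of all genes of at least 20 CPM in a class. Only classes with at least 50 cells in a library were ranked, so all 9 were ranked in library 2 alone. In library 7 the nonclassical monocyte-like cells and all endothelial-like cells but the general capillary ones were left out. The exceptions were Msr1, highest in classical monocyte-like cells in libraries 3 and 7, and Stab1, highest in endothelial-like cells in libraries 1 and 2. Lymphatic endothelial-like cells, the highest in Stab1, were too few to be ranked in libraries 1, 3 and 7. As a background, B cell-like cells, which should lack these receptors, held at most 7.55 CPM of any of the 10 in any library.

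**Figure D1:**
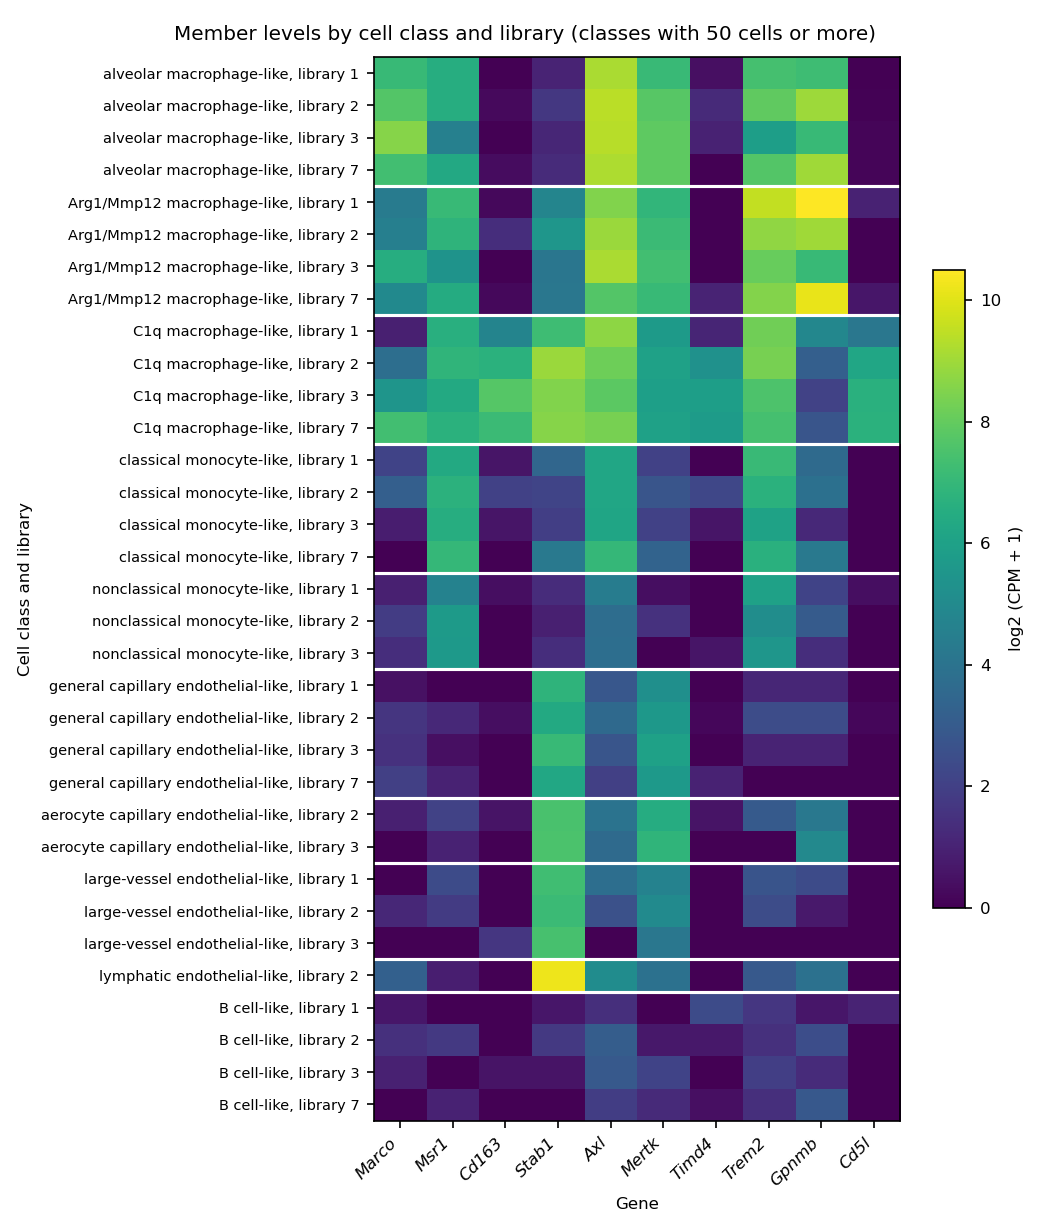
Colour gives log2 (CPM + 1) of each gene (columns) in each class and library with at least 50 cells (rows), with white lines between classes and B cell-like cells last. Cd163, Timd4 and Cd5l stand out in the C1q macrophage-like rows, except Timd4 in library 1, while Stab1 and Mertk continue into the endothelial-like rows.

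Marco, a collagenous scavenger receptor for bacteria and inhaled particles, was highest in the alveolar class, where 1131 cells held a UMI of it and 2074 held none. Its level there was 134, 206, 383 and 160.0 CPM in libraries 1, 2, 3 and 7, highest in library 3. In Arg1/Mmp12 macrophage-like cells it was 19.6, 21.8, 91.1 and 30.3 CPM, below the alveolar level in each library, with 11 UMIs behind the third value. Monocyte- and endothelial-like cells were at most 8.02 CPM in classes of at least 50 cells outside the lymphatic class, which had 8.35 CPM in library 2. In C1q macrophage-like cells Marco read 0.913, 12.8, 44.0 and 159.7 CPM, and the last of these rested on 3 of 87 cells, of which 1 held 158 of the 166 UMIs.

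Msr1, the class A scavenger receptor for modified lipoproteins, was found in every macrophage and monocyte class. Classical monocyte-like cells held 82.0, 105, 90.9 and 127 CPM and C1q macrophage-like cells 97.5, 116, 83.3 and 105 CPM, so these ranges overlapped. Alveolar macrophage-like cells held 90.9, 93.1, 22.6 and 79.7 CPM, and the value of library 3 stood well below the other 3. Arg1/Mmp12 macrophage-like cells held 134, 114, 41.4 and 87.0 CPM, with 5 UMIs behind the third value. Nonclassical monocyte-like cells were lower, at 24.5, 51.2 and 50.3 CPM in libraries 1, 2 and 3, and no endothelial-like class of at least 50 cells exceeded 4.26 CPM.

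Cd163, the receptor for haptoglobin and haemoglobin, was almost limited to C1q macrophage-like cells. It read 25.3, 105, 212 and 142 CPM there, with library 1 (95% interval 20.9 to 30.5) below library 2 (93.1 to 117) and the others. These values came from 25, 57, 38 and 12 cells, while 685 cells of the class held no Cd163 UMI. The top 5 cells held 26.1% to 70.3% of a library's UMIs, so the counting intervals understate the error. Alveolar macrophage-like cells, sampled by far more molecules, held 0, 4, 0 and 3 Cd163 UMIs in the 4 libraries, and a count of 0 allows up to 0.356 CPM in library 1 and 0.273 CPM in library 3. The next highest of all named classes was the dendritic cluster named conventional dendritic cell 1-like, at 2.03, 5.81, 16.8 and 5.7 CPM. That cluster also held markers of conventional dendritic cell 2, which summed to 1593 to 3692 CPM.

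Stab1, a scavenger receptor that also binds phosphatidylserine, was shared by C1q macrophage-like cells and the endothelium. C1q macrophage-like cells held 148, 488, 369 and 380.0 CPM, lowest in library 1. Alveolar macrophage-like cells held 1.07, 2.29, 1.18 and 1.45 CPM, inside the 0 to 2.32 CPM of the B cell-like background. Arg1/Mmp12 macrophage-like cells lay between these, at 26.4, 45.2, 16.6 and 16.8 CPM, with 2 UMIs behind the third value.

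The receptor tyrosine kinases were the steadiest across libraries of the 6 genes with at least 20 CPM in alveolar macrophages. Axl read 569, 684, 662 and 589 CPM in alveolar macrophage-like cells, 359.9, 486, 579 and 205 CPM in Arg1/Mmp12 macrophage-like cells and 418, 286, 234 and 328 CPM in C1q macrophage-like cells. Its highest alveolar library was 1.2 times its lowest. Classical monocyte-like cells held 72.4, 72.5, 71.4 and 125 CPM and nonclassical ones 20.5, 12.6 and 13.0 CPM in libraries 1, 2 and 3, without overlap. Outside the myeloid classes, Axl was at 265 and 327 CPM, in libraries 2 and 3, in the cells named smooth muscle cell or pericyte and at 84.0 to 172 CPM in fibroblast-like cells.

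Mertk, the other of the pair, was at 137, 218, 238 and 234 CPM in alveolar macrophage-like cells, with library 1 lowest. It was at 119, 141, 157 and 135 CPM in Arg1/Mmp12 macrophage-like cells and 51.1, 63.5, 59.2 and 62.5 CPM in C1q macrophage-like cells, and these 2 ranges did not overlap. In contrast to Axl it was nearly absent from classical monocyte-like cells (3.03, 5.86, 3.12 and 9.05 CPM). It was present in capillary endothelium, as given with the endothelial classes.

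Timd4, a direct phosphatidylserine receptor of long-lived tissue macrophages, read 1.14, 39.1, 57.6 and 52.9 CPM in C1q macrophage-like cells, so that library 1 stood apart from the other 3. The value of library 1 lay inside the 0 to 4.35 CPM of the B cell-like background. Timd4 rested on 4, 16, 13 and 7 cells with a UMI. The other macrophage classes held at most 1.38 CPM. The conventional dendritic cell 1-like cluster held 44.6, 40.1, 70.1 and 35.6 CPM and mature dendritic cell-like cells 22.5 and 66.0 CPM in libraries 1 and 7, ranges that overlapped that of the C1q class. In library 1, Timd4 was higher in the dendritic classes than in any macrophage class.

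Cd5l, a secreted scavenger protein made by some tissue macrophages, was confined in these libraries to the C1q class among the 9 described, at 17.1, 74.2, 100.1 and 103 CPM. No other of them held more than 1.03 CPM. Cells left unnamed held 0 to 20.1 CPM, with a median over libraries of 3.21 CPM. The C1q values came from 7, 11, 6 and 6 cells, with 10.7 to 20.8 UMIs per cell that held any. The top 5 cells held 76.1% to 99.2% of a library's UMIs, so the counting intervals understate the error of these values.

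Trem2, a lipid-sensing receptor of phagocytes, and Gpnmb, a transmembrane glycoprotein of lipid-laden macrophages, were highest in Arg1/Mmp12 macrophage-like cells. Trem2 read 735, 426, 265 and 376 CPM there, 301, 320.2, 187 and 170.3 CPM in C1q and 166, 244, 58.0 and 208 CPM in alveolar macrophage-like cells. It was also in classical (138, 104, 64.4 and 101 CPM) and nonclassical (63.3, 34.1 and 45.1 CPM) monocyte-like cells. In each of the 4 libraries the Arg1/Mmp12 value was the highest of these, and in libraries 1, 2 and 3 the C1q value stood above the alveolar one. The Arg1/Mmp12 value of library 3 rested on 32 UMIs in 8 of 58 cells, with 90.6% of them in the top 5 cells.

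Gpnmb reached the highest level of the 10 in any macrophage class. It read 1448, 513, 132 and 1128 CPM in Arg1/Mmp12 macrophage-like cells and 148, 502, 134 and 509.7 CPM in alveolar macrophage-like cells, where libraries 2 and 7 were high and libraries 1 and 3 low. C1q macrophage-like cells held 27.9, 8.17, 3.2 and 5.77 CPM, so Trem2 was present in that class with little Gpnmb. The 58 Arg1/Mmp12 macrophage-like cells of library 3 gave 16 Gpnmb UMIs (95% interval 75.7 to 215 CPM). Neutrophil-like cells ranged from 0 to 93.6 CPM, highest in library 7.

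**Figure D2:**
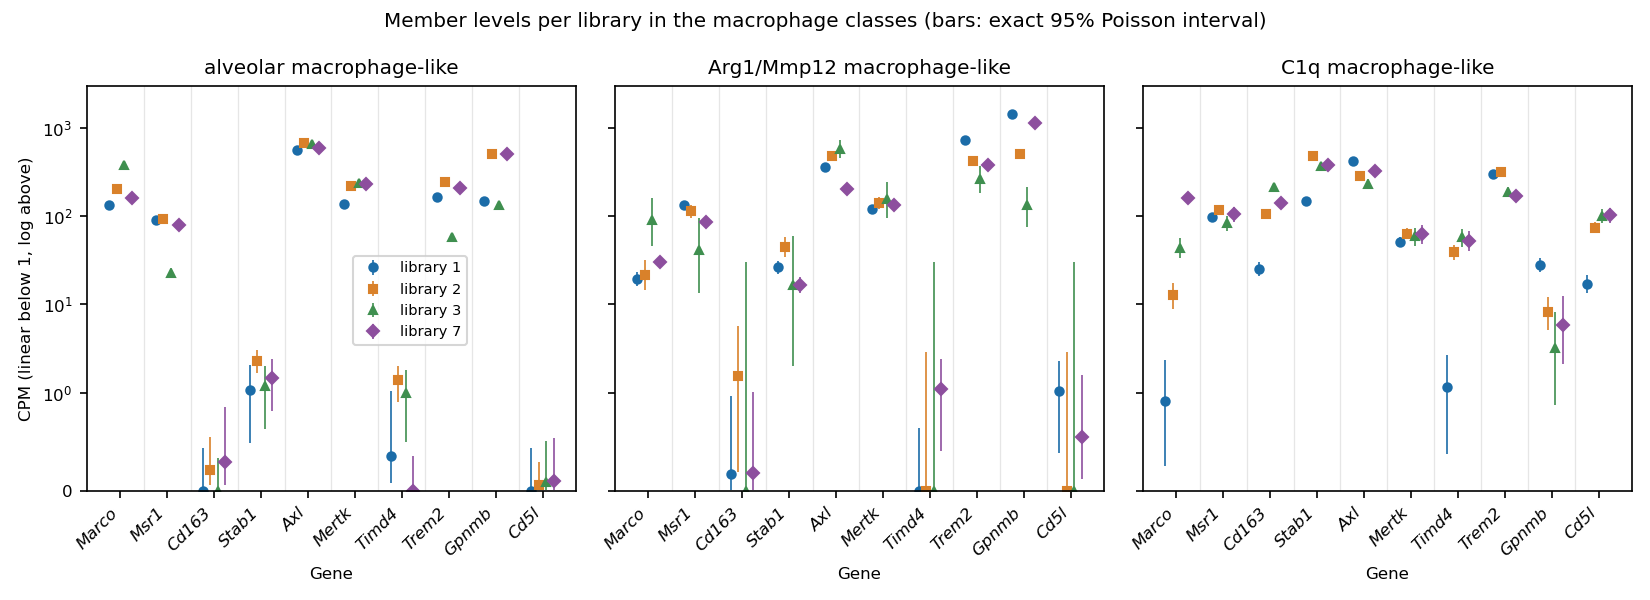
Points give each gene's CPM in libraries 1, 2, 3 and 7 in the 3 macrophage classes, on an axis that is linear below 1 and logarithmic above, with exact 95% Poisson intervals as bars. Axl and Mertk lie close together across libraries in the alveolar panel, whereas in the C1q panel library 1 lies below the others for Marco, Cd163, Stab1, Timd4 and Cd5l.

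Alveolar and C1q macrophages, the airspace and tissue populations that their markers stand for, were compared within each library. A gene was counted when its ratio of CPM + 1 passed 2-fold in the same direction in every library with 50 cells of both classes, among genes of at least 20 CPM in one of them. All 10 genes could be compared. Cd163, Timd4, Stab1 and Cd5l reached that level in the C1q class alone and Gpnmb in the alveolar class alone, so the only direction in which these could be counted was set by the limit, and the counts are a description. Mertk and Gpnmb were higher in alveolar macrophage-like cells, 2 of 10 against 5.17% of all 6582 genes, and Cd163, Stab1 and Cd5l were higher in C1q macrophage-like cells, 3 of 10 against 6.5%.

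Of the C1q side, Stab1 had log2 ratios of alveolar over C1q from -7.41 to -6.17, Cd163 from -7.74 to -4.72 and Cd5l from -6.57 to -4.18. Of the alveolar side, Gpnmb ranged from 2.37 to 6.24 and Mertk from 1.41 to 1.99. Marco missed the call through library 7 alone, where its log2 ratio was 0.00 against 3.09 to 6.14 in the others, and without library 7 it was counted, for 6 of 10. Timd4 missed it through library 1, at -0.66 against -5.75 to -4.07, and without library 1 it was counted, also for 6 of 10. Axl (from 0.45 in library 1, with a median of 1.05), Msr1 (-1.83 to -0.10) and Trem2 (-1.68 to 0.29) did not pass, and Trem2 changed sign in library 7. The median log2 ratio over the 10 genes was -0.49, against 0.17 over all genes compared. The genes counted changed with the processing. Cd163 and Gpnmb were no longer counted with mitochondrial genes at most 5%, nor Gpnmb with classes from marker UMIs in single cells. Without the C1q macrophage-like cells that held 5 or more Cd5l UMIs, Cd5l was lost and Marco gained. Timd4 was gained at resolution 0.4 and with cells thinned to 1500 UMIs, while Mertk and Stab1 were counted under every alternative tried.

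Between alveolar and Arg1/Mmp12 macrophage-like cells fewer genes were counted, but a gene also had to pass in library 3 with its few molecules. The count is thus no measure of how alike the classes were. Of the 7 genes of the set that could be compared, Marco alone was higher in alveolar cells, with log2 ratios from 2.06 to 3.18, against 0.7% of 6283 genes. Stab1 alone was higher in Arg1/Mmp12 cells, with log2 ratios from -3.81 to -2.86, against 1.23%, and it reached 20 CPM in that class alone. In library 3 the Arg1/Mmp12 values rested on 2 UMIs of Stab1 and 11 of Marco, too few to secure a 2-fold ratio of Stab1 there. Without library 3 both genes were still counted. Trem2 leaned to the Arg1/Mmp12 side in every library (log2 ratios from -2.17 to -0.80) without passing 2-fold in libraries 2 and 7. Gpnmb was at -3.28 and -1.14 in libraries 1 and 7 and at -0.03 and 0.02 in libraries 2 and 3, where the classes were level. Cd163, Timd4 and Cd5l were below 20 CPM in both classes. Neither Marco nor Stab1 was counted when clusters were coarser (resolution 0.4). The mean of single-cell CPM kept Stab1 alone, and classes from marker UMIs in single cells kept Marco alone. The latter setting left a library with 0 cells of the Arg1/Mmp12 class, so fewer libraries entered.

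**Figure D3:**
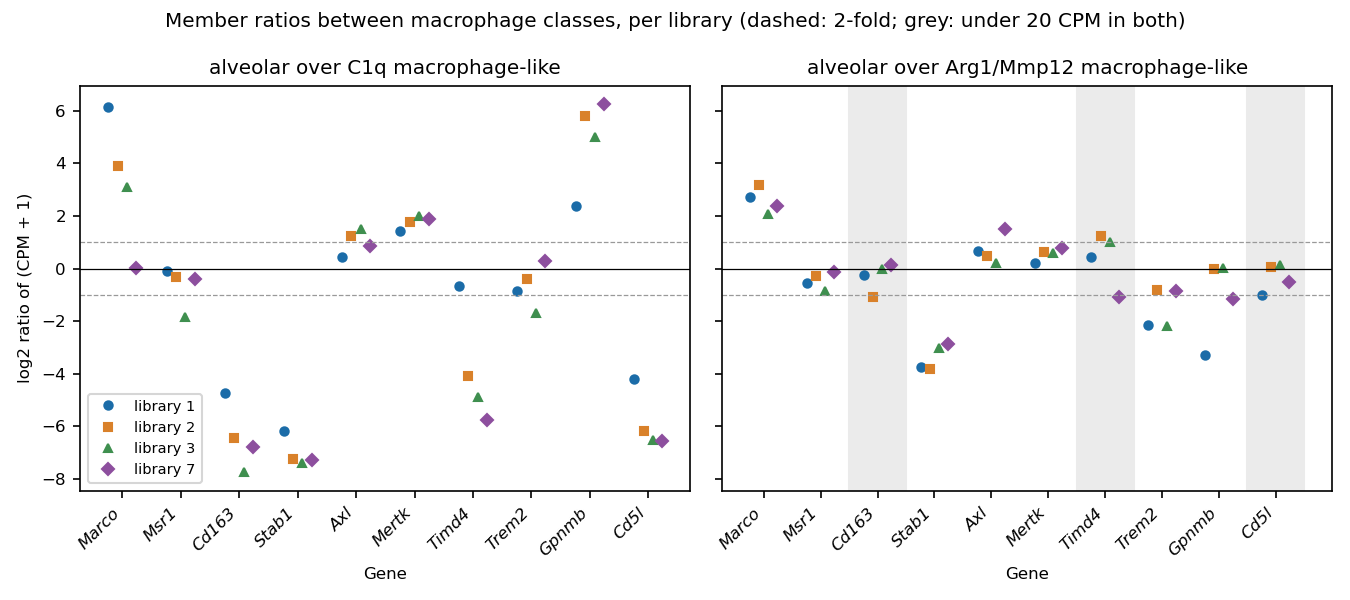
Points give the log2 ratio of CPM + 1 of alveolar over C1q (left) and alveolar over Arg1/Mmp12 macrophage-like cells (right) in each library, with dashed lines at 2-fold and grey bands for genes under 20 CPM in both classes. Cd163, Stab1 and Cd5l lie below the lower line on the left in all 4 libraries, and the scatter of Marco, Timd4 and Gpnmb between libraries is the widest there.

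Among related genes were those for bridging proteins and opsonins between dying cell and phagocyte. Of 8 listed, 6 were higher in C1q than in alveolar macrophage-like cells and 0 the other way, against 6.5% and 5.17% of all genes. Of the 6, all but Apoe reached 20 CPM in the C1q class alone, so the only direction in which they could be counted was set by that limit. Gas6, a ligand of Axl and Mertk, had log2 ratios of alveolar over C1q from -6.49 to -4.93, and the complement genes C1qa, C1qb and C1qc, together with Apoe and Thbs1, made up the rest. C1qa, C1qb and C1qc are also markers that named the class and are no finding in it, which leaves 3 of 5. The other 2 leaned to the alveolar side without passing 2-fold in every library: Pros1, which Mertk also binds, from 0.92 to 1.35, and Mfge8 from -1.45 to 3.28, below 0 in library 3. Among 12 other phagocytic receptors 5 could be compared, and Cd300lf was higher in alveolar cells (from 1.63 to 4.31). Among 12 other scavenger receptors 9 could be compared, with Olr1, an oxidised lipoprotein receptor, on the alveolar side (from 3.38 to 6.29) and Cxcl16 on the C1q side (from -5.18 to -3.08). None of 7 adaptor and signalling genes passed, and of 8 genes that act after engulfment Pparg passed, higher in alveolar cells (from 2.80 to 3.23). Of 3 genes of signals against uptake, Cd47 was higher in alveolar cells (from 1.17 to 1.61). Olr1 and Pparg reached 20 CPM in the alveolar class alone, so their direction too was set by the limit.

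Against Arg1/Mmp12 macrophage-like cells, 4 of 7 bridging genes compared (C1qa, C1qb, C1qc and Apoe) and 1 of 9 other scavenger receptors (Cxcl16) were lower in alveolar cells, against 1.23% of all genes. C1qa, C1qb and C1qc reached 20 CPM in the Arg1/Mmp12 class alone, so their direction was set by that limit. No gene of the other related lists passed in that comparison.

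Within alveolar macrophage-like cells, the highest library was at least 2 times the lowest for 4 of the 6 genes of at least 20 CPM over the class, against 10.2% of all genes. These were Trem2 (4.16 times), Msr1 (3.98 times), Gpnmb (3.77 times) and Marco (2.85 times), while Mertk (1.72 times) and Axl (1.2 times) varied less. Library 3 was the lowest for Trem2, Msr1 and Gpnmb and the highest for Marco. Without library 3, Gpnmb alone of the 6 kept a range past 2-fold.

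The clusters behind the alveolar class differed in Gpnmb. In cluster 0 Gpnmb read 490.4, 528, 147 and 574 CPM and in cluster 10 45.6, 253, 81.5 and 187 CPM, lower in each library. Marco read 243, 215, 390.3 and 181 CPM in cluster 0 and 103, 48.3, 378 and 60.3 CPM in cluster 10, alike in library 3 and lower in cluster 10 in the others. Axl differed least between them, with log2 ratios of cluster 0 over cluster 10 from 0.02 to 0.31, and Gpnmb most, from 0.84 to 3.40. Of the 6 genes of at least 20 CPM, 0 passed 2-fold in all 4 libraries, against 0.0326% of all genes higher in cluster 0 and 0.212% higher in cluster 10. Cluster 10 held 488 of the 657 alveolar cells of library 1, and within cluster 0 alone library 1 was at 490.4 CPM of Gpnmb, close to libraries 2 and 7, whereas library 3 stayed low at 147 CPM. The part of the cluster mix in the range between libraries was not otherwise tested.

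Within C1q macrophage-like cells, 5 of 9 genes passed 2-fold between libraries, against 13.3% of all genes, a comparison added after the data were seen. They were Marco (84.0 times), Timd4 (27.4 times), Cd163 (8.09 times), Cd5l (5.73 times) and Stab1 (3.28 times), and library 1 was the lowest for each. Without library 1, Marco and Cd163 alone still passed. Without the 18 cells of this class that held 5 or more Cd5l UMIs, Cd163 and Stab1 alone passed, since Marco, Timd4 and Cd5l then lay under 20 CPM over the class. Marco also fell under that level without library 7, and Timd4 without library 2. Msr1, Trem2, Axl and Mertk stayed within 1.88 times. Library 1 held 328 cells of this class, more than the 285, 117 and 87 of libraries 2, 3 and 7, and their median of 13134 UMIs was the highest. Neutrophil markers in this class summed to 144 to 3055 CPM, highest in library 7, and their part in the values of library 7 was not tested.

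In Arg1/Mmp12 macrophage-like cells 6 of 7 genes passed the same limit, against 35.1% of all genes. Without library 3, whose cells of this class were few and shallow, it was 3 of 7 (Axl, Stab1 and Gpnmb).

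Few cells carried the Cd5l of the C1q class. Of the C1q macrophage-like cells, 3, 7, 3 and 5 in libraries 1, 2, 3 and 7 held 5 or more Cd5l UMIs. In these, Cd163 read 0, 165, 0 and 0 CPM and Stab1 0, 66.0, 0 and 29.0 CPM, against 25.5, 102, 224 and 153 CPM and 149, 507, 389.5 and 405 CPM in the remaining cells of the class. Cd163 was thus at 0 in these cells except in library 2, where it was higher than in the rest, and so few cells cannot show whether it lay in other cells. Marco read 93.2, 231, 806 and 2364 CPM in them against 0.23, 2.97, 1.69 and 3.09 CPM in the rest. It came from 9 of the 18 cells, which held 3, 28, 53 and 163 Marco UMIs in libraries 1, 2, 3 and 7 against 1, 8, 2 and 3 in the rest, and 1 cell of library 7 held 158 of them. Msr1 was also higher in them, at 373, 668, 487 and 479 CPM against 95.5, 91.6, 60.8 and 78.3 CPM. Timd4 read 0, 132, 395 and 464 CPM in them and 1.15, 34.9, 38.9 and 23.7 CPM in the rest, and Trem2 0, 41.3, 15.2 and 43.5 CPM and 304, 333, 197 and 179 CPM. These are values of few cells chosen by Cd5l itself after the data were seen, and Scrublet, a caller of doublets, marked 1 of them.

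**Figure D4:**
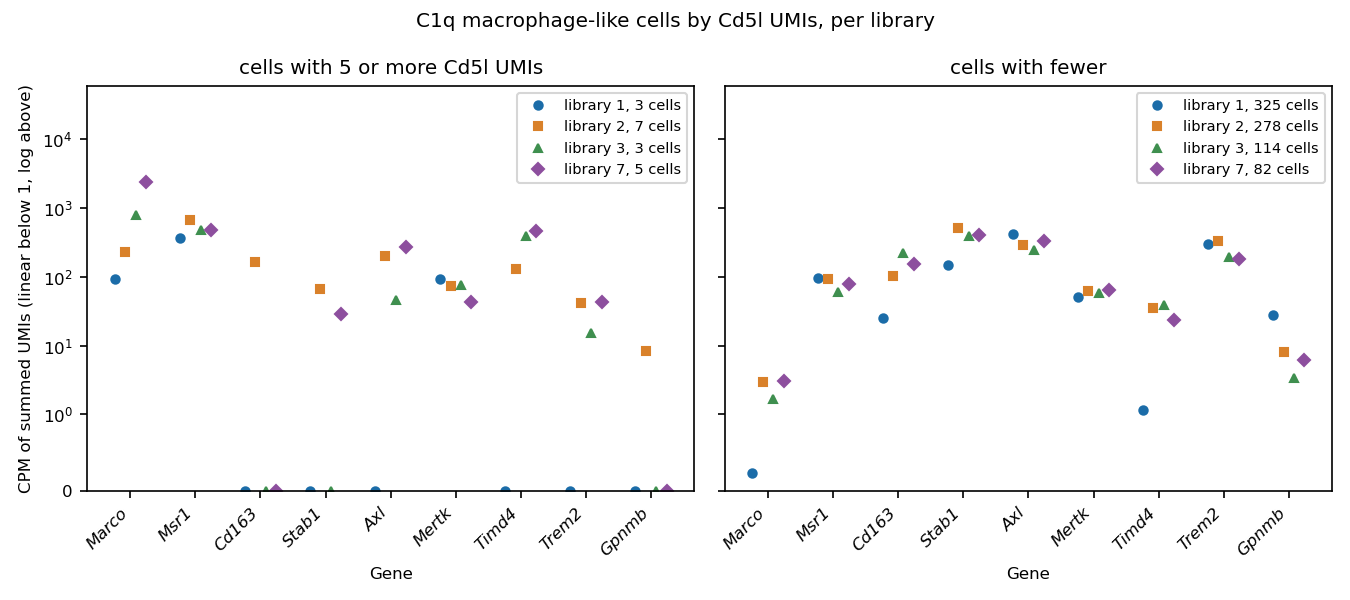
Points give the CPM of the other 9 genes, per library, in C1q macrophage-like cells with 5 or more Cd5l UMIs (left) and in the rest of the class (right), on an axis linear below 1 and logarithmic above. Marco and Msr1 lie higher on the left and Stab1, Axl and Trem2 higher on the right, while Cd163 is at 0 on the left in every library but library 2, where it is higher on the left.

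Pairs of genes were then counted in single C1q macrophage-like cells, pooled over the 4 libraries. Levels differ between these libraries, so pooling can itself bring genes together, and the intervals cover the counting of cells only. Library 1, the lowest in Timd4, Cd163 and Cd5l, held 328 of the 817 cells and 4 of the 40 with Timd4. Of the pairs below, only Axl with Cd163 is given within libraries. Of 40 cells with a Timd4 UMI 26 also held Cd163, a share of 65.0% (95% interval 48.3% to 79.4%), against 13.6% (11.3% to 16.3%) of cells without Timd4. Of 30 cells with Cd5l 10 held Marco, 33.3% (95% interval 17.3% to 52.8%) against 1.27% (0.611% to 2.32%). Timd4-positive cells held Cd5l in 22.5% (95% interval 10.8% to 38.5%) against 2.7% (1.68% to 4.1%). In the pooled cells, those with Timd4 thus held Cd163 more often and Cd5l more often, each counted apart. Only 4 cells of the class held Cd163 together with Cd5l. Cd163 was in 13.3% (95% interval 3.76% to 30.7%) of cells with Cd5l against 16.3% (13.8% to 19.0%) of those without, shares whose intervals overlapped. Trem2 was less frequent with Cd5l, in 33.3% (95% interval 17.3% to 52.8%) of cells with Cd5l against 70.6% (67.3% to 73.8%) of those without. Axl was in 67.4% (95% interval 58.7% to 75.3%) of cells with Cd163 against 84.1% (81.1% to 86.7%), and it was less frequent in cells with Cd163 within each library, by the least in library 3 (63.2% against 65.8%). At an equal depth of 1500 UMIs per cell, the 5 pairs other than Cd5l with Cd163 kept their directions, and Cd163 then read 38.9% of cells with Timd4 against 7.25%.

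In the other macrophage classes, Gpnmb was detected more often in cells that also held Trem2. At the same equal depth, Gpnmb was in 36.0% (95% interval 32.3% to 39.9%) of alveolar macrophage-like cells with Trem2 against 26.5% (24.7% to 28.2%) without, and in 61.8% (95% interval 57.1% to 66.3%) against 43.4% (39.2% to 47.7%) of Arg1/Mmp12 macrophage-like cells. The shares pool libraries whose levels differ, and those within libraries were read at full depth, where deeper cells show more of any gene. Neither reading holds library and depth fixed together. Within libraries and at full depth, Gpnmb was more frequent in cells with Trem2 in each of the 4 libraries of the alveolar class, from 40.7% against 20.2% in library 1 to 90.9% against 72.3% in library 2. Marco and Trem2 had no common direction there, with Trem2 in 72.4% of alveolar cells with Marco against 59.2% without in library 1, 83.7% against 85.9% in library 2, 44.1% against 43.6% in library 3 and 85.7% against 88.9% in library 7.

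The share of cells with a UMI depends on depth, so it was read after each cell was thinned to 1500 UMIs, which left out 1731 shallower cells of all classes. Axl was then detected in 57.1% to 64.1% of alveolar macrophage-like cells, against 92.8% to 97.7% at full depth, with 0% to 1.33% of thinned B cell-like cells as a background. Mertk was in 18.8% to 33.1% of alveolar and 5.49% to 9.88% of general capillary endothelial-like cells, against 0% to 0.398% of B cell-like cells. Marco was in 8.87% to 31.5% of alveolar cells, with the highest share in library 3, so most of these cells showed none at this depth. At full depth it was in 196 of 657, 313 of 1208, 503 of 790 and 119 of 550 alveolar cells of libraries 1, 2, 3 and 7, a minority in all but library 3. Gpnmb was in 39.8% and 42.5% of alveolar cells of libraries 2 and 7 and in at most 14.8% of those of libraries 1 and 3. Msr1 was in 2.61% of alveolar cells of library 3 and in 9.43% to 12.0% of those of the others, and Trem2 in 7.7% against 16.8% to 29.5%. Median depths of alveolar cells ran from 12271 to 17854 UMIs and of B cell-like cells from 3550 to 11336. In thinned C1q macrophage-like cells, Stab1 was in 17.1% to 42.3%, Cd163 in 4.05% to 17.8%, Timd4 in 0.312% to 6.93% and Cd5l in 0.935% to 6.02%.

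Stab1 and Mertk were the genes of the set that the general capillary endothelium carried at 20 CPM or more. General capillary endothelial-like cells, the capillary cells that renew the others, held 114, 82.5, 134 and 77.8 CPM of Stab1 and 36.3, 47.2, 62.8 and 50.3 CPM of Mertk in libraries 1, 2, 3 and 7. Against B cell-like cells both passed 2-fold in every library, with log2 ratios from 4.65 to 6.52 and from 3.88 to 5.22. No other of the 10 reached 20 CPM in either class, and these reached it through the endothelial class, so their direction was set by that limit and nothing is read from their count of 2 beside 24.9% of all 7569 genes that were higher in these endothelial-like cells and 10.1% higher in B cell-like cells. Markers of C1q macrophages summed to 37.4 to 50.9 CPM in the general capillary class, against 10401 to 18423 CPM in their own, and those of alveolar macrophages to 71.9 to 270.0 CPM. The class joined clusters 1 and 12, and cluster 12, whose NK cell markers scored higher than its endothelial ones although endothelial genes led it, held 99.7, 71.7, 139 and 63.2 CPM of Stab1 against 116, 85.9, 132 and 79.9 CPM in cluster 1.

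Between endothelial classes the pair parted. Stab1 was highest in lymphatic endothelial-like cells, at 1188 CPM (95% interval 1127 to 1251) in the 112 cells of library 2 and at 1382, 1216 and 1212 CPM in the 10, 16 and 3 cells of libraries 1, 3 and 7. Aerocyte capillary endothelial-like cells, the capillary cells of gas exchange, held 180.4 and 182 CPM in libraries 2 and 3, and large-vessel endothelial-like cells 156, 143 and 172 CPM in libraries 1, 2 and 3. Mertk was highest of the endothelium in aerocytes, at 89.7 and 117 CPM in libraries 2 and 3, above the 47.2 and 62.8 CPM of general capillary cells of the same libraries. It was lowest in lymphatic cells, at 14.2 CPM in library 2. In library 2 the lymphatic Stab1 level was also above the 488 CPM of C1q macrophage-like cells.

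Of the other genes, Gpnmb was at 17.4 and 29.7 CPM in aerocytes of libraries 2 and 3, above the 4.65 and 1.43 CPM of B cell-like cells, and Axl was at 33.4 CPM in lymphatic cells of library 2. Cd163 and Cd5l were at or near 0 in every endothelial-like class. Among related genes, 4 of 5 bridging genes compared were higher in general capillary than in B cell-like cells, against 24.9% of all genes. Where a related gene reached 20 CPM in 1 of these 2 classes alone, its direction was set by that limit. Nothing is read from these counts. The bridging genes that were higher were Gas6 (log2 ratios from 3.45 to 4.65), Pros1 (from 4.34 to 5.76), Mfge8 (from 4.03 to 4.84) and Thbs1 (from 1.96 to 5.34), while Apoe was lower. Gas6 and Pros1 are the ligands of Mertk. Cd36 (from 6.07 to 6.36) and Ager among the phagocytic receptors, Scarb1 (from 4.51 to 5.17) and Scarb2 among the scavenger receptors, and Dock1 (from 5.76 to 6.76), Gulp1, Rac1 and Crk among the adaptors were also higher, and Cd300lf, Hcst and Syk were lower.

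**Figure D5:**
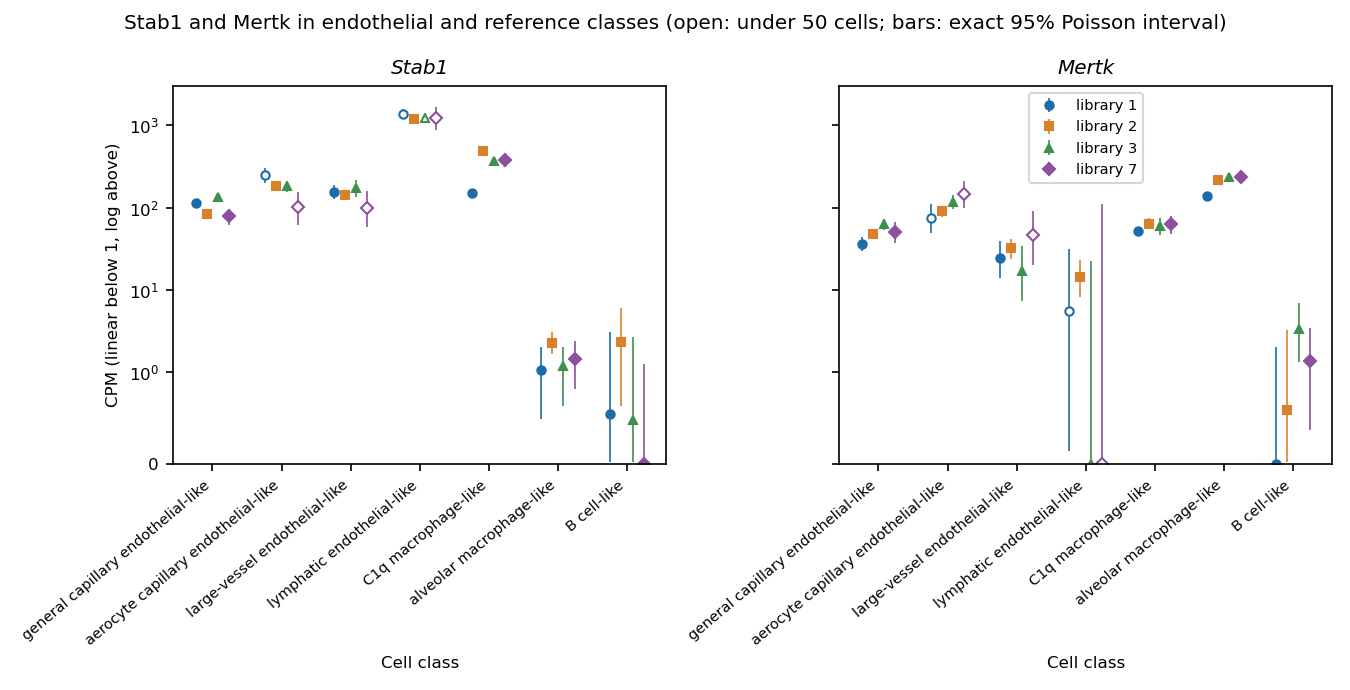
Points give CPM of Stab1 (left) and Mertk (right) in libraries 1, 2, 3 and 7 in the 4 endothelial-like classes, with C1q macrophage-like, alveolar macrophage-like and B cell-like cells for reference, exact 95% Poisson intervals as bars and open points for classes under 50 cells. Stab1 is highest in lymphatic endothelial-like cells, and Mertk is higher in aerocytes than in the other endothelial-like classes of libraries 2 and 3.

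Classical monocytes are recruited to inflamed tissue and can become macrophages, while nonclassical ones patrol vessels. Libraries 1, 2 and 3 had 50 cells of both classes. Axl alone of the 3 genes of at least 20 CPM was past 2-fold in each, higher in classical monocyte-like cells with log2 ratios from 1.77 to 2.44, reaching 20 CPM in that class alone, against 3.18% of 5817 genes higher in classical and 3.4% higher in nonclassical cells. Msr1 (from 0.84 to 1.71) and Trem2 (from 0.50 to 1.57) were higher in classical cells of each library but missed 2-fold in library 3, and without library 3 all 3 passed. Of the classical clusters, cluster 13, which scored higher for nonclassical than for classical markers, held more Axl (141, 91.3, 111 and 224 CPM) than cluster 8 (43.9, 63.3, 46.4 and 77.5 CPM) in each library, and cluster 8 alone was still past 2-fold above the nonclassical cells of libraries 1, 2 and 3. Among related genes C1qb, Thbs1 and Mrc1 were higher in classical and Cd36 and Pparg in nonclassical monocyte-like cells.

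The genes whose levels went most like each of the 10 were read as Pearson's r of log2 (CPM + 1) over 62 combinations of a named class and a library, which share libraries and depth, and are a description. For Cd5l they were Cd209g (r = 0.95), Folr2 (r = 0.94) and Fcna (r = 0.93), and for Cd163 Fcrls (r = 0.88), Cd5l (r = 0.85) and Folr2 (r = 0.85). For Stab1 they were Lyve1 (r = 0.83), Lbx2 (r = 0.79) and Ednrb (r = 0.78), and for Timd4 Cd209d (r = 0.88), Cd209a (r = 0.82) and Upb1 (r = 0.81). Msr1 and Trem2 were each other's nearest gene (r = 0.92), followed for Msr1 by Fcgr1 and Clec4a3 and for Trem2 by Fcgr1 and Ctsa. For Gpnmb they were Atp6v0d2 (r = 0.85), Ctsk (r = 0.84) and F7 (r = 0.82), for Marco Gm41307 (r = 0.87), Slc9a4 (r = 0.83) and F7 (r = 0.80), for Axl Mmp19 (r = 0.88), Adap2 (r = 0.88) and Sh3pxd2b (r = 0.87) and for Mertk Vat1 (r = 0.87), Lpl (r = 0.86) and Hs1bp3 (r = 0.85). Atp6v0d2, Ctsk, Ednrb and Cd209a are also on the marker lists used to name classes, so their likeness to a gene over these classes is no separate finding. Within the set, Cd163 and Cd5l had r = 0.85 over these combinations, and Axl and Mertk had r = 0.58. The pairs whose promoters are shown had r = 0.53 (Timd4 and Cd5l) and r = 0.65 (Trem2 and Gpnmb).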

How the data were processed

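Whole-lung cells of 4 samples were profiled by 10x Genomics Chromium 3' RNA sequencing (v3 reagents per the labels, version 2 per the study's methods). The authors deposited UMI counts per gene and barcode in a single matrix, made with Cell Ranger 3.1.0 and STAR on mm10 (credited to the submitters' processing notes and the methods), which also describe aggregation with reads down-sampled across samples. That step lowers depth differences between libraries. The barcode suffix gives the library, from 1 to 7, and no source ties it to a group. The genes, marker lists and related-gene lists were chosen with earlier results of these data known.

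Of 24344 barcodes in libraries 1, 2, 3 and 7, 20856 passed the mitochondrial limit of 10%. They were clustered with scanpy 1.11.5 on 2000 variable genes without the 10 genes, with 30 components, alignment by mutual nearest neighbours, 20 neighbours and Leiden clustering at resolution 0.8 (40 clusters). Clusters were named from 29 marker lists by a score, and 7 that carried 2 lineages were left unnamed. The score and that rule were set after the clusters were seen, and 944 cells stayed unnamed. UMIs were summed per class and library and given as CPM with exact Poisson intervals, shares with exact binomial ones, both at 95%. Doublets were kept in the values, and Scrublet marked 33 to 428 cells per library. The clustering, naming and fold rule were tested on simulated data. The genes named were the 10, the related genes past the limit and the 3 genes nearest to each of the 10 in pattern. The ranges between libraries in the C1q and Arg1/Mmp12 classes, the comparison of clusters 0 and 10 and the split by Cd5l UMIs were added after the data were seen. Alternatives changed the cell limits, alignment, resolution, clustering genes, class setting, cell weights, depth, doublets, pseudocount, low-value limit and libraries.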

Additional observations from a re-analysis of the deposited data

Results flagged for a closer look

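Libraries 4, 5 and 6 of the matrix lie outside the rule for these genes and entered no comparison, but 9 of the 10 genes were found there above the limit that a count of 0 allows (0.0327 CPM over the 3 libraries). Over all cells of libraries 4 to 6, Msr1 was at 21.8 CPM and Trem2 at 18.4 CPM, against 38.7 and 105 CPM over all cells of libraries 1, 2, 3 and 7. Library 4 held most of both, with 48.9 CPM of Msr1 and 46.5 CPM of Trem2, against 8.41 and 9.33 CPM and 5.18 and 4.91 CPM in libraries 5 and 6. Axl was at 3.46 CPM, Gpnmb at 0.632 CPM and Mertk at 0.185 CPM, against 229, 177 and 75.2 CPM. Marco was at 0.0545 CPM, Cd163 at 0.479 CPM, Stab1 at 0.381 CPM and Cd5l at 0.566 CPM, against 60.0, 4.89, 42.2 and 2.83 CPM. Timd4 had 2 UMIs there, under that limit. No source ties these libraries to a group, and the difference was not tested.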

How the results depend on the processing

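No gene called in a comparison changed direction under any alternative. Of the log2 ratios of the 10 genes under an alternative, 357 of 387 moved by at most 1 SD over libraries, and of the levels 1107 of 1180 did. Genes counted as higher in 1 of 2 classes stayed within 1.5 times in 131 of 140 values, counts of 0 that stayed at 0 included. These totals hold values that could not move. A changed low-value limit leaves every ratio as it was, and leaving out the Cd5l cells alters the C1q class alone. The totals are therefore no measure of robustness. Between alveolar and C1q cells, 5 genes became 3 with mitochondrial genes at most 5%. Between alveolar and Arg1/Mmp12 cells, 2 became 1 with classes from marker UMIs in single cells, 1 with the mean of single-cell CPM and 0 at resolution 0.4. Without alignment Gpnmb was added there on the Arg1/Mmp12 side. Between capillary and B cells, classes from marker UMIs added Axl. Between monocytes, 1 became 2 without the low-value limit (Mertk added). The range between libraries in Arg1/Mmp12 cells passed for 6 genes, and for 2 with classes from marker UMIs, 3 with limits of 2 SD on UMIs and genes, 1 without alignment and 3 without Scrublet calls. In C1q cells it passed for 5, and for 2 without the cells with 5 or more Cd5l UMIs. With 1 library left out at a time, the count was 5 to 6 for alveolar against C1q cells, 2 each time for alveolar against Arg1/Mmp12 cells, 1 to 3 for monocytes, 2 each time for capillary against B cells and 8 each time for the highest class. It was 1 to 4, 2 to 5 and 3 to 5 for the ranges between libraries in alveolar, C1q and Arg1/Mmp12 cells, with the lowest counts without library 3, library 1 and library 3. The causes were not tested. With mitochondrial genes at most 5%, alveolar against Arg1/Mmp12 cells, capillary against B cells and the range in Arg1/Mmp12 cells could not be given. At that limit 0 cells were named Arg1/Mmp12 macrophage-like. No paired analysis was possible because the libraries carry no group and the results come from no test. With 1 mouse per group and no map from library to group, no difference between the models was read.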
